A study of Homo sapiens with 11 samples.

Results

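The regions described here are 304 intervals that MYRF occupied in both of 2 pancreatic cancer cell lines, that carried acetylated histone H3 lysine 27 (H3K27ac) and that had no reproducible FOS peak. They were taken from 2793 reproducible MYRF intervals of the CFPAC1 line, where reproducible means a merged interval holding a peak of both replicate lists. Of these intervals, 1284 overlapped a reproducible HPAF2 MYRF interval by at least 1 bp. Of the shared intervals, 918 overlapped both an H3K27ac peak of at least 1 of 4 lists and a reproducible FOS interval, 304 overlapped an H3K27ac peak and no such FOS interval, and 62 had no H3K27ac peak. The members were chosen by the presence of MYRF peaks in both lines and of H3K27ac and by the absence of FOS, so those values are a description and not a result.

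The study mapped chromatin by ChIP-seq in CFPAC1 and HPAF2, 2 human pancreatic ductal adenocarcinoma lines, with 2 libraries in each of 5 groups. MYRF was mapped with an antibody made by the submitters in the original CFPAC1 line, grown in IMDM, and in the original HPAF2 line, grown in RPMI. FOS and the control H3K27ac were mapped in a CFPAC1 clone isolated by dilution after infection with the lentiCRISPRv2 plasmid. The knockout H3K27ac came from another such CFPAC1 clone, whose plasmid also carried wild-type Cas9 with a guide RNA against MYRF. Each condition is 1 clone, so clone and MYRF status cannot be told apart, and FOS was measured in other cells than MYRF. No HPAF2 list of FOS or H3K27ac was analysed here. The labels do not say that the 2 libraries of a group came from separate cultures, so their spread may be technical.

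The deposited MYRF lists held 3702 to 4743 peaks, the FOS lists 29087 and 36349, and the H3K27ac lists 107586 to 116466. The ductal identity of the control clone was checked on H3K27ac peaks within 1 kb of a gene end in both control lists. Such peaks were present at 9 of 10 ductal epithelial markers, all but CFTR, against 1 of 7 acinar, 0 of 5 endocrine, 1 of 5 mesenchymal, 2 of 4 immune, 0 of 3 endothelial and 0 of 4 oligodendrocyte markers. An end of the MYRF gene itself carried an H3K27ac peak in all 4 lists, which checks nothing about the edit.

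MYRF is a transcription factor whose precursor is anchored in the membrane of the endoplasmic reticulum (ER). It forms trimers, cuts itself and releases a DNA-binding part that enters the nucleus, and much of what is known of it comes from oligodendrocytes, where it drives myelin genes. FOS pairs with JUN proteins to form AP-1, which binds at many enhancers of epithelial cells. H3K27ac marks active promoters and enhancers.

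The promoters show the sequence side of these sites most directly, because RefSeq windows of 300 bp (250 bp before to 50 bp after a gene's start) could be read there. The CFPAC1 MYRF summit, taken as the mean of the 2 replicate summits, lay inside such a window at 37 members, and 40 windows held one. The MYRF motif searched was CTGGCAC or CTGGTAC on both strands, where a match on one strand can overlap a match on the other. It was found in 14 of the 40 windows (35%), against 7.04% of all 22198 protein-coding windows and 6.35% of the 11979 windows with H3K27ac in both control lists. The AP-1 motif searched was TGAGTCA or TGACTCA, which are reverse complements of each other and were counted once per position. It was found in 0 of the 40 windows, against 4.01% of all windows and 3.66% of the acetylated ones. A match describes the letters and is not a shown binding site.

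The promoters of 7 members with a match are printed as examples, because the match lies near the MYRF summit or the gene is described below. They are not all such members. Matches reaching more than 20 bases past a gene's start are not printed. Among these are the matches at MRPS23 and RGS3, 18 and 74 bp from the summit. All sequences are from RefSeq (GRCh38.p14), written 5′ to 3′ on the strand of the gene, with the MYRF motif in capitals.
MET, chr7:116672093-116672169, plus strand: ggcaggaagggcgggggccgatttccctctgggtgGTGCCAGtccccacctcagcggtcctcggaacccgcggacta
SEC11A, chr15:84716173-84716249, minus strand: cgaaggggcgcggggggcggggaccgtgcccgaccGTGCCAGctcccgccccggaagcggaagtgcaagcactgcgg
BIRC3, chr11:102317383-102317459, plus strand: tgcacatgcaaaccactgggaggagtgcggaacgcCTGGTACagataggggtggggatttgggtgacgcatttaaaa
ZNF146, chr19:36214994-36215070, plus strand: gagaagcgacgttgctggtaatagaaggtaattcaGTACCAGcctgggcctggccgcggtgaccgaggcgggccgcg
DIS3L2, chr2:231961463-231961520, plus strand: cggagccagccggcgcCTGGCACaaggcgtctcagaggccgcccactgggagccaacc
KLK11, chr19:51026597-51026668, minus strand: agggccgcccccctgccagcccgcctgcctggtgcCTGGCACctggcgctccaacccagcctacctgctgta
TMEM42, chr3:44861863-44861931, plus strand: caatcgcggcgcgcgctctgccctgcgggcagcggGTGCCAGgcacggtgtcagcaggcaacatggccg

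MET encodes the receptor of hepatocyte growth factor, SEC11A a catalytic subunit of signal peptidase, BIRC3 an inhibitor of apoptosis and DIS3L2 an exoribonuclease. KLK11 is a secreted serine protease of the kallikrein family. The motif centre lay 70 bp from the CFPAC1 MYRF summit at MET, 22 bp at SEC11A, 21 bp at BIRC3, 22 bp at ZNF146, 28 bp at DIS3L2, 39 bp at KLK11 and 54 bp at TMEM42. Over the 14 matches at members, the median distance was 44.5 bp (lowest 18, highest 200), with 8 matches within 50 bp and 13 within 100 bp. The 300 bp window itself limits how far a match can lie from a summit inside it.

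At shared sites with FOS, 15 summits fell in 16 windows. A MYRF motif was in 4 of these (25%) and an AP-1 motif in 5 (31.2%). The AP-1 windows belonged to 4 sites, since 2 of them were overlapping windows of IL15RA. The promoters of IL15RA, INF2 and C15orf62 are shown for contrast, with the AP-1 motif in capitals. IL15RA encodes a chain of the interleukin-15 receptor and INF2 a formin that acts on actin.
IL15RA, chr10:5977625-5977701, minus strand: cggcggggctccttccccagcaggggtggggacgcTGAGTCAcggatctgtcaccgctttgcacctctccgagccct
INF2, chr14:104681023-104681099, plus strand: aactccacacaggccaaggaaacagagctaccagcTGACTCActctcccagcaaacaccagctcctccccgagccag
C15orf62, chr15:40769903-40769979, plus strand: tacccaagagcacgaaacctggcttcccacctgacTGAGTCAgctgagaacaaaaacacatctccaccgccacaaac

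The AP-1 centre lay 26 bp from the MYRF summit at IL15RA, 82 bp at INF2 and 108 bp at C15orf62. At CFPAC1-only MYRF sites without FOS, 9 of 51 windows held a MYRF motif (17.6%) and 2 held an AP-1 motif (3.92%). The 9 windows belonged to 7 sites, of 43 with a summit in a window. These counts are small and cover only promoters, and no test was made of them. FOS peaks split the classes and FOS is part of AP-1, so the AP-1 shares are not independent of that choice.

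**Figure D1:**
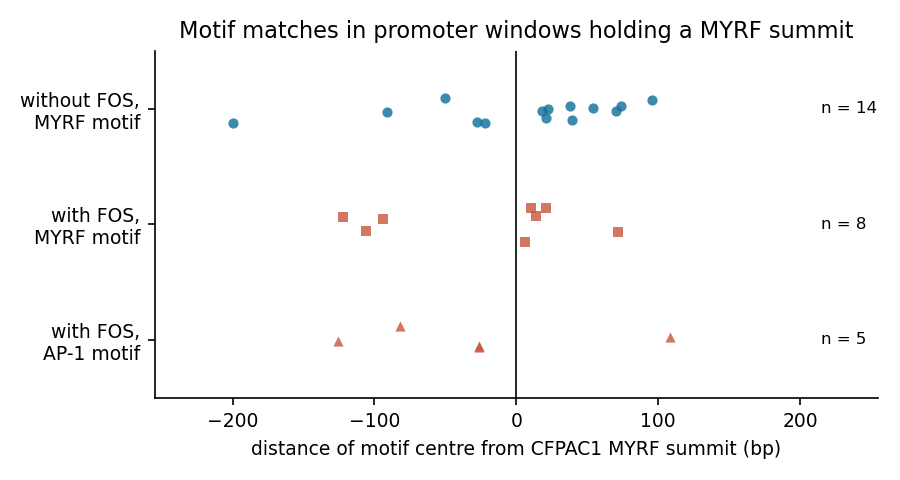
Positions of motif centres relative to the CFPAC1 MYRF summit (bp, positive values at higher coordinates) in promoter windows that hold a summit. Each point is 1 match, 8 of the 14 MYRF matches at sites without FOS lie within 50 bp of the summit, and the same IL15RA match is drawn once for each of its 2 windows.

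MYRF enrichment over background varied widely among the members. The deposited fold enrichment at the summit ranged from 3.01 to 66.7 (median 8.08) in CFPAC1 list 1 and from 3.10 to 70.2 (median 7.88) in list 2. In HPAF2 it ranged from 2.93 to 93.2 (median 7.27) in list 1 and from 3.04 to 100.01 (median 8.16) in list 2. Shared sites with FOS had medians of 7.43, 7.04, 6.83 and 7.52 in the same order of lists. Because each list's folds refer to the background of that library alone, they rank sites within a list only. Within-list percentiles placed the median member at 82.8 and 80.2 in CFPAC1 and, in HPAF2, at 75.2 and 80.0.

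The site of best joint rank, meaning the highest value of its lowest percentile over the 4 MYRF lists, lay outside any protein-coding gene on chromosome 18 (22683116 to 22684176, GRCh38). The nearest gene end, 230546 bp away, was that of RBBP8, a factor of DNA end resection. Its MYRF fold enrichment was 65.2 and 70.2 in CFPAC1, with 60.5 and 68.6 in HPAF2, above the 99.8th percentile in every list. The site had H3K27ac peaks in all 4 lists and a FOS peak in FOS list 2 alone.

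GRAMD1B ranked next, inside the gene at chromosome 11, 123587901 to 123588753. The gene encodes a sterol transfer protein at contacts of the ER with the plasma membrane. MYRF enrichment there was 50.7 and 51.2 in CFPAC1, with 93.2 and 100.01 in HPAF2, the highest of any peak in both HPAF2 lists. A reproducible FOS interval lay 362 bp away, and neither FOS list had a peak on the site.

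ANXA4, which encodes a calcium-dependent phospholipid-binding protein, held the third site (chromosome 2, 69780904 to 69782101). MYRF enrichment was 66.7 and 68.6 in CFPAC1, with 51.0 and 56.1 in HPAF2. Inside PLXNB2, a semaphorin receptor, the values were 46.5 and 46.1 in CFPAC1, with 41.0 and 44.2 in HPAF2. These 4 sites all lay above the 99th percentile in every MYRF list.

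Other members among the 12 of best joint rank were nearest to ZPLD1, RGS3, GALNS, MYL11, STYXL2, TET3 and MDH2. RGS3 encodes a regulator of G protein signalling, TET3 a dioxygenase that oxidises methylcytosine and MDH2 mitochondrial malate dehydrogenase. Their CFPAC1 list 1 folds ran from 20.6 at TET3 to 38.3 at RGS3. Of the 12 sites, 9 lay inside a protein-coding gene, 3 within 1 kb of a gene end and 10 had H3K27ac peaks in all 4 lists. A FOS peak of a single list overlapped 6 of the 12.

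**Figure D2:**
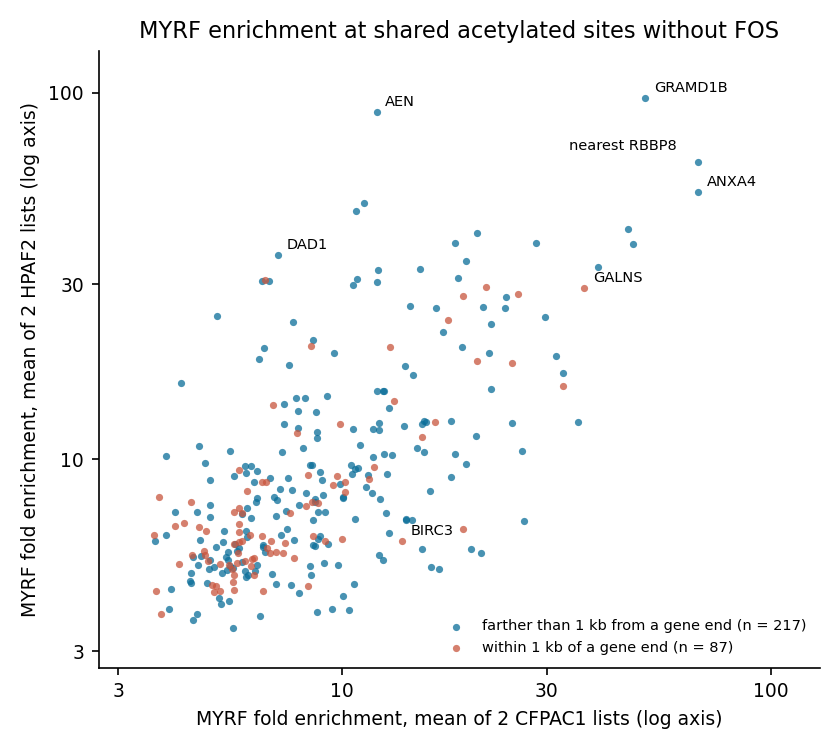
MYRF fold enrichment at the 304 sites, as the mean of the 2 CFPAC1 lists (x axis) against the mean of the 2 HPAF2 lists (y axis), both log axes. Each point is 1 site, red points lie within 1 kb of a protein-coding gene end (n = 87) and blue points farther away (n = 217). GRAMD1B, ANXA4 and the site nearest RBBP8 are at the upper right, and AEN and DAD1 stand above the sites of like CFPAC1 fold.

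The members of weakest joint rank lay near SEMA4B, KCTD10 and ITGB2. Their lowest −log10 q values over the MYRF lists were 2.04, 2.23 and 2.12, but other lists ranked them higher. In CFPAC1 list 1 the KCTD10 site had a fold of 8.31, at the percentile 83.9. The ITGB2 site had folds of 5.02 and 6.08 in CFPAC1, with 2.93 and 4.001 in HPAF2. On the FOS side, the sites kept out by the weakest reproducible FOS overlap were nearest OGFRL1, LPP and MN1. Their FOS folds were 2.52 and 3.76, 2.52 and 3.62, and 2.60 and 3.87. Strong members with a FOS peak in 1 list only, nearest RBBP8 and PLXNB2, had single FOS folds of 4.18 and 4.27. A total of 77 members (25.3%) had a FOS peak of some list: 16 in list 1 only, 60 in list 2 only and 1 with peaks of both lists that did not overlap each other.

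The nearest reproducible FOS interval of a member lay 14 to 1023599 bp away (median 13218 bp). It was within 1 kb for 37 members and within 5 kb for 98. Summits of the 2 CFPAC1 lists were a median of 26 bp apart at these sites, and those of the 2 HPAF2 lists 26.5 bp. The mean summits of the lines, which vary less than single ones, were a median of 22 bp apart, and 236 members (77.6%) had them within 50 bp. Spearman correlations of percentile across the 304 sites were 0.87 between CFPAC1 lists, 0.86 between HPAF2 lists and 0.60 between the lines, given as a description of sites that share libraries.

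The ranks of 111 members were higher in both CFPAC1 lists than in either HPAF2 list, those of 85 were higher in both HPAF2 lists, and 108 overlapped. The site nearest DAD1, a subunit of the enzyme that attaches N-glycans, had folds of 7.61 and 6.55 in CFPAC1 (percentiles 80.4 and 70.8) and, in HPAF2, of 30.8 and 41.3 (percentiles 98.6 and 99.1). The following was chosen after its values were seen. Inside AEN, which encodes an apoptosis-enhancing nuclease, the site ranked at the percentiles 92.3 and 91.1 in CFPAC1 and, in HPAF2, at 99.97 and 99.98, with folds of 12.2, 11.9, 84.9 and 91.6 in that order. The KLK11 site ranked at 87.7 and 91.3 in CFPAC1 and, in HPAF2, at 99.5 and 99.7, with folds of 9.48, 12.03, 43.0 and 51.9. The line difference in rank is small at AEN and KLK11, and the folds of different lists are not on 1 scale. In the opposite direction, the TAGAP site stood at 10.2 and 10.5 in CFPAC1, near the 89th percentile, and at 3.92 and 3.86 in HPAF2, under the 16th.

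Sites without FOS lay at gene ends far more often than sites with FOS. A gene end here is either end of a protein-coding gene in the RefSeq table, which gives no transcripts. The summit was within 1 kb of one at 87 of 304 members (28.6%, Wilson 95% interval 23.8 to 33.9%), against 49 of 918 shared sites with FOS (5.34%, 4.06 to 6.99%) and 11.7% of all 2426 acetylated CFPAC1 MYRF sites. The odds ratio was 7.11 (95% interval 4.86 to 10.4, two-sided Fisher's exact test, Benjamini-Hochberg adjusted p = 2.26e-24 over 4 tests). Sites of 1 genome are not replicates of a condition, so intervals and p-values over sites speak for these libraries. When every list was limited to peaks with a −log10 q of at least 10, the difference fell from 23.3 to 10.6 percentage points (Fisher's exact test, adjusted p = 0.000147).

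The same position was common at MYRF sites without FOS that CFPAC1 did not share with HPAF2, of which 98 of 366 (26.8%) lay within 1 kb of a gene end. No test was made between these classes. Within 300 bp of a gene end lay 20.4% of members and 2.72% of shared sites with FOS, and within 10 kb 48.7% and 27.1%. The median member was 10711.5 bp from a gene end and the farthest 523401 bp. RefSeq starts of protein-coding genes were within 1 kb of 77 members (25.3%), and 11 of these had starts on both strands.

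**Figure D3:**
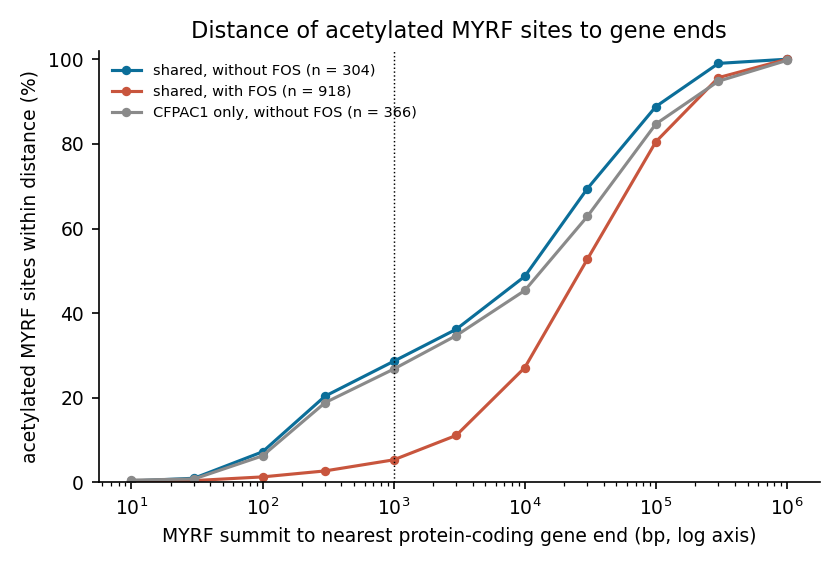
Cumulative share (%) of acetylated CFPAC1 MYRF sites by distance from the MYRF summit to the nearest protein-coding gene end (bp, log axis), for shared sites without FOS (n = 304), shared sites with FOS (n = 918) and CFPAC1-only sites without FOS (n = 366). The dotted line marks 1 kb, where the 3 curves stand at 28.6%, 5.34% and 26.8%.

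The strongest gene-end members were at GALNS, MYL11, TET3, DIS3L2, PREPL, ZNF706, TMTC2, ENDOD1, FAM83A and EML2. GALNS encodes a lysosomal sulfatase, and its site, 233 bp from the gene end, lay inside the neighbouring TRAPPC2L, a gene of a vesicle tethering complex. MYRF folds there were 36.7 and 36.7 in CFPAC1, with 25.8 and 32.9 in HPAF2. At TET3, 138 bp from the end, they were 20.6 and 22.7 in CFPAC1, with 30.4 and 28.6 in HPAF2. At DIS3L2, whose motif is printed above, they were 18.7 and 19.6 in CFPAC1, with 22.7 and 33.0 in HPAF2. All 10 of these sites had H3K27ac peaks in all 4 lists.

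FAM83A, a signalling scaffold of the basal-like pancreatic cancer program, held 2 members, 169 and 3410 bp from its end. The nearer had MYRF folds of 13.3 and 12.6 in CFPAC1, with 19.3 and 21.3 in HPAF2. At PREPL, a gene of a serine peptidase family, H3K27ac peaks covered all 2000 bp around the summit in each of the 4 lists. At EML2, a microtubule-associated protein, they covered 285 and 701 bp in the control and 506 and 312 bp in the knockout.

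As a class, gene-end members had lower MYRF enrichment than the rest and stood higher in the H3K27ac lists. Their median MYRF folds were 6.82 and 6.44 in CFPAC1, then 6.44 and 6.71 in HPAF2, against 8.78, 8.57, 7.86 and 8.91 for members farther away. Their median H3K27ac percentile was 93.7 in control list 1, against 86.0 farther away and 94.2 at shared sites with FOS. These are descriptions of ranked peaks and were not tested.

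Position inside a protein-coding gene did not pass the test. The summit lay inside one at 160 members (52.6%, 47.0 to 58.2%) and at 427 shared sites with FOS (46.5%, 43.3 to 49.7%), beside 48.1% of all acetylated CFPAC1 MYRF sites. The odds ratio was 1.28 (0.985 to 1.66, Fisher's exact test, adjusted p = 0.0982). It passed with a difference of 8.24 points without FOS replicate 2 (adjusted p = 0.0306) and of 7.57 points without HPAF2 MYRF replicate 2 (adjusted p = 0.0367), both by Fisher's exact test.

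The H3K27ac peaks of the lists are described here without a test over sites. Control lists had a peak on 284 (93.4%) and 291 (95.7%) of the 304 members, and knockout lists on 258 (84.9%) and 263 (86.5%). At the 918 sites with FOS the shares were 98.3% and 95.3% in the control and 96.0% and 96.0% in the knockout. All 4 lists had a peak on 240 members (78.9%), on 839 sites with FOS (91.4%) and on 293 CFPAC1-only sites without FOS (80.1%). Both knockout values of the members lay below both of their control values. The same held at CFPAC1-only sites without FOS (93.4% and 93.4% in the control, 86.1% and 89.1% in the knockout) and at all acetylated CFPAC1 MYRF sites (96.9% and 95.1%, then 92.5% and 93.9%), but not at shared sites with FOS.

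Peaks in both control lists that were missing from at least 1 knockout list occurred at 32 members (10.5%), beside 5.23% of all acetylated CFPAC1 MYRF sites. The share was close to that of the members at CFPAC1-only sites without FOS (34 sites, 9.29%) and lower at shared sites with FOS (29 sites, 3.16%). The opposite, peaks in both knockout lists missing from a control list, occurred at 3 members (0.987%), beside 1.53% of all acetylated CFPAC1 MYRF sites. It occurred at 8 CFPAC1-only sites without FOS (2.19%) and at 18 shared sites with FOS. The 32 members comprised 15 with a peak in knockout list 2 only, 9 with a peak in knockout list 1 only and 8 in neither. Single-list peaks made up a further 19 members, of which 11 were in control list 2 alone and 7 in control list 1 alone.

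Counted as base pairs covered by H3K27ac peaks within 1000 bp of the MYRF summit, a member had a mean of 1494 and 1521 bp in the control lists and of 1359 and 1339 bp in the knockout lists. Both knockout values were lower than both control values. The difference, knockout minus control, was -159 bp, and the exact permutation test over libraries gave p = 0.333, the smallest value that 2 against 2 libraries allow. Shared sites with FOS had 1756 and 1708 bp in the control and 1660 and 1695 bp in the knockout, a difference of -54.1 bp (exact permutation p = 0.333). The ratio of member to FOS-site coverage was 0.851 and 0.891 in the control and 0.819 and 0.790 in the knockout, again without overlap and with the same exact p of 0.333. CFPAC1-only sites without FOS, which were not tested, had 1538 and 1533 bp in the control and 1382 and 1452 bp in the knockout. Lower knockout coverage was thus not particular to the members.

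Among the members, those farther than 1 kb from a gene end had 1455 and 1490 bp in the control and 1268 and 1271 bp in the knockout, a difference of -203 bp. Gene-end members had 1592 and 1598 bp in the control and 1586 and 1508 bp in the knockout, a difference of -48.5 bp. Coverage was lower in both knockout lists than in both control lists at 81 members (26.6%), beside 20.5% of all acetylated CFPAC1 MYRF sites, and higher in both at 13 (4.28%), beside 7.42%. Of the CFPAC1-only sites without FOS, 85 (23.2%) had lower coverage and 32 (8.74%) higher coverage by the same rule. Whether the distant and gene-end members differ in this respect was not tested.

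Peak coverage dipped at the MYRF summit itself. At the summit position 74.0% and 74.0% of members were covered in the control lists and 64.5% and 66.8% in the knockout lists. At 500 bp to either side the control lists covered 78.3 to 82.6% and the knockout lists 68.4 to 74.3%. At 400 bp to either side the control lists covered 80.9 to 85.5% of members. The dip was shallower than at shared sites with FOS. There the control lists covered 61.8 to 66.6% of sites at the summit and 91.8 to 94.99% at 400 bp to either side.

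**Figure D4:**
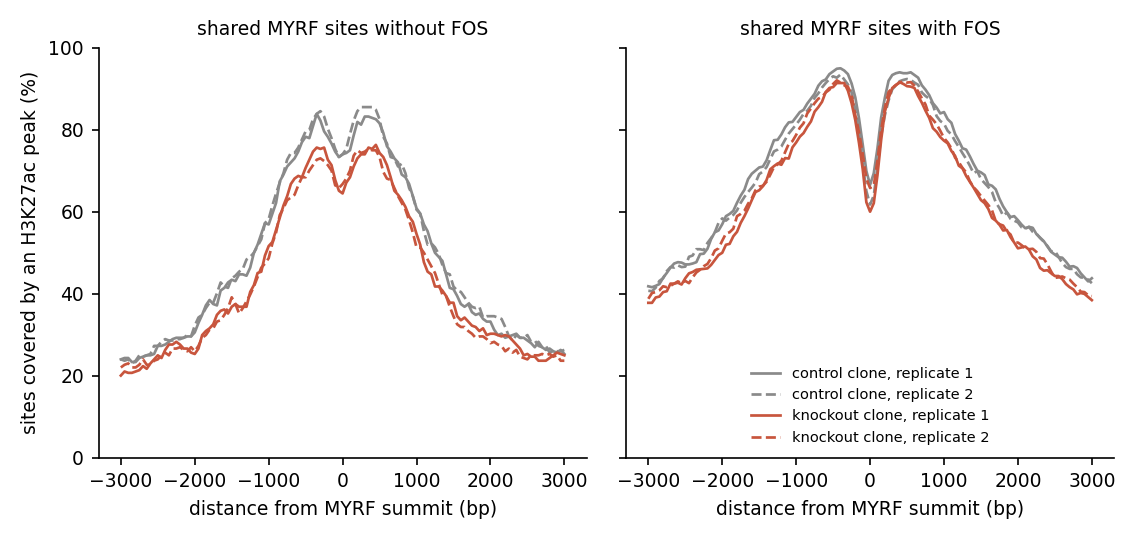
Share (%) of sites covered by an H3K27ac peak at each distance from the CFPAC1 MYRF summit (bp), for shared sites without FOS (left) and with FOS (right). Each line is 1 library (grey control clone, red knockout clone, solid replicate 1, dashed replicate 2), and at the left both knockout lines run below both control lines at the summit.

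Loss of acetylation, meaning an H3K27ac peak of both control lists and of neither knockout list on the site, occurred at 8 members (2.63%, 1.34 to 5.11%) and at 7 shared sites with FOS (0.763%, 0.370 to 1.57%). Of the CFPAC1-only sites without FOS, which were not part of the test, 11 of 366 (3.01%) were lost. The background was 1.32% of acetylated CFPAC1 MYRF sites and 3.51% of all 134465 merged H3K27ac regions. The odds ratio was 3.52 (1.26 to 9.78, Fisher's exact test, adjusted p = 0.0324). Gain occurred at 0 members, where the Wilson interval reaches 1.25%, and at 2 sites with FOS (0.218%, adjusted p = 1 by Fisher's exact test), beside 0.165% of acetylated MYRF sites and 1.7% of the merged regions.

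The difference in loss did not pass when sites were compared within strata of H3K27ac strength. Whether it depends on that strength was not tested. All 8 lost members were among the 101 members in the weakest of 5 strata of H3K27ac percentile, where 5 of 144 sites with FOS were lost. Over all 5 strata the Mantel-Haenszel odds ratio was 1.899 (0.653 to 5.52, exact p = 0.280). The call also ended without either FOS replicate (adjusted p = 0.191 without replicate 1 and 0.0787 without replicate 2, Fisher's exact test). Leaving out an H3K27ac list asks for a peak or its absence in 1 list of that clone in place of 2, a looser definition of loss, and the difference was then 5.30, 4.03, 3.62 and 5.62 points (odds ratios 6.19, 4.88, 2.95 and 4.09) without control 1, control 2, knockout 1 and knockout 2.

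None of the 8 lost members lay within 1 kb of a gene end, and 5 had no H3K27ac peak within 1000 bp of the summit in either knockout list. At GRAMD1B, the second-ranked MYRF site, H3K27ac peaks covered 728 and 1283 bp in the control and 0 and 0 bp in the knockout. At ERGIC1, which encodes a protein that cycles between the ER and the Golgi, they covered 358 and 617 bp in the control and 0 and 0 bp in the knockout. ROR1, a receptor of WNT signals, had 1440 and 875 bp in the control and 0 and 0 bp in the knockout.

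CRACDL had 501 and 896 bp in the control and DIPK2B 1297 and 997 bp, with 0 and 0 bp in the knockout at both. At the site nearest B3GALNT2, a glycosyltransferase gene, and inside TBCE the coverage was 1052 and 1208 bp in the control and 201 and 0 bp in the knockout. Peaks beside the site remained in the knockout near RASSF10, with 1289 and 1292 bp in the control and 536 and 807 bp in the knockout. Near TMEM198, inside CHPF, coverage was 1039 and 960 bp in the control and 716 and 682 bp in the knockout. H3K27ac folds at the 8 sites were 3.42 to 9.90 in the control lists, below the members' control medians of 13.02 and 13.2. A FOS peak of a single list overlapped 3 of the 8, at ERGIC1, ROR1 and RASSF10, with folds of 3.90, 2.82 and 3.28.

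**Figure D5:**
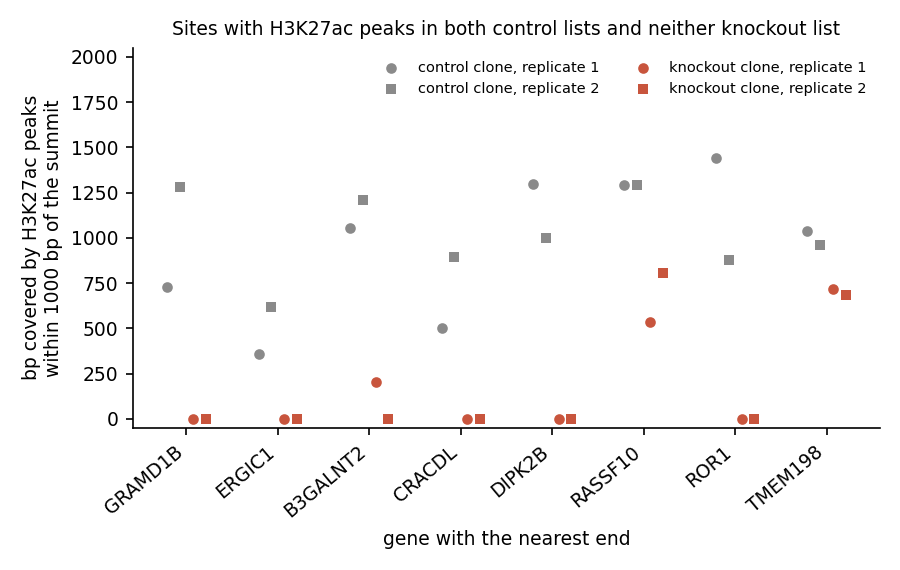
Base pairs covered by H3K27ac peaks within 1000 bp of the MYRF summit (y axis, at most 2000) at the 8 sites with peaks in both control lists and neither knockout list, labelled by the gene with the nearest end. Each point is 1 library (grey control clone, red knockout clone, circle replicate 1, square replicate 2), and 5 of the 8 sites stand at 0 in both knockout lists.

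The remaining named sites follow from gene lists on secretory, epithelial and pancreatic functions. A gene counted when it had the nearest gene end of a member within 50 kb. Of 20033 protein-coding genes, 237 did so (1.18%), and 13 of 17 lists held at least 1 of them. The counts are too small to set a list apart, and no list test was made.

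In the secretory lists, genes of N-glycosylation counted 2 of 33, DAD1 and DPAGT1, which encodes the enzyme of the first step of N-glycan assembly. At DPAGT1 the MYRF folds were 6.90 and 6.43 in CFPAC1, with 6.70 and 4.75 in HPAF2. ER chaperones and folding enzymes counted 1 of 30, AGR3, a member of the protein disulfide isomerase family. Its site had 31.4 and 34.1 in CFPAC1, with 14.5 and 19.8 in HPAF2. The unfolded protein response list counted 1 of 17, ERN2, an ER stress sensor of mucosal epithelia, with folds of 12.5 and 11.6 in CFPAC1, with 29.8 and 31.0 in HPAF2.

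SEC11A was the 1 of 25 genes of ER translocation and signal peptide processing, with MYRF folds of 8.03 and 8.44 in CFPAC1, with 7.02 and 7.86 in HPAF2. Its promoter was covered by H3K27ac peaks over all 2000 bp in each list. ERGIC1 was the 1 of 39 genes of ER-to-Golgi transport found in the gene table, and B3GNT3, a glycosyltransferase of O-glycans, the 1 of 19 genes of O-glycosylation. GRAMD1B and ANXA4 were the 2 of 30 found for lipid and sterol transfer. ER-associated degradation counted 0 of 19.

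In the epithelial lists, transcription factors counted 3 of 30, GRHL3, HNF4G and ELF3. GRHL3 had MYRF folds of 17.5 and 11.8 in CFPAC1, with 16.0 and 18.0 in HPAF2. The ELF3 site had 4.52 and 3.24 in CFPAC1, with 6.79 and 5.64 in HPAF2. Its percentiles were 34.1 and 3.22 in CFPAC1 and, in HPAF2, 70.9 and 54.5, so it was near the bottom of CFPAC1 list 2 only. Mucins and epithelial glycoproteins counted 1 of 30, MET, with folds of 8.52 and 10.5 in CFPAC1, with 9.35 and 7.62 in HPAF2. The classical pancreatic cancer program counted 1 of 20, CDH17, an intestinal cadherin, and the basal-like program 1 of 26, FAM83A. At CDH17 the folds were 20.1 and 17.2 in CFPAC1, with 30.1 and 32.4 in HPAF2, with an H3K27ac peak on the site in control list 2 alone.

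Of AP-1 and related factors, 1 of 15 counted, FOS itself. The site lay 11870 bp from the FOS gene, with MYRF folds of 15.5 and 12.4 in CFPAC1, with 11.2 and 13.4 in HPAF2 and no FOS peak in either list. Cytosolic ribosomal protein genes counted 2 of 40, RPS14 and RPL37, whose sites lay 176 and 183 bp from the gene end. Cell junctions counted 0 of 30, myelin and oligodendrocyte genes 0 of 20 and mesenchymal genes 0 of 14.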

How the data were processed

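The analysis started from 10 lists of ChIP-seq peaks, 2 in each of 5 groups, and 1 HPAF2 input sample was not analysed here. The tools that the authors named, per the submitters' processing notes, were MACS2 2.1.0.20150731, SAMtools, Bowtie2 2.2.6 and Trimmomatic 0.38, and the build was GRCh38 (hg38). The deposited lists hold, for each peak, the authors' fold enrichment (a ratio over local background), the −log10 p-value, the −log10 q-value, a score and the summit's offset. Peaks were called for each library separately. The control used for calling, the number of reads and the depth are not given in the sources used here, so lists were compared by presence and covered length, and fold only ranks peaks within a list. A stronger or deeper library passes more weak peaks.

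Overlap meant at least 1 bp. Shares carry Wilson 95% intervals over sites, which cover counting only. Fisher's exact tests were adjusted over 4 results at a threshold of 0.05, and coverage was compared by exact permutation over libraries. Positions came from the RefSeq gene table and promoter windows of GRCh38.p14, and 191 of the 246 members with a gene end within 50 kb had a window for that gene. Windows of chromosome 8, where 12 members lie, were not used here, neither for the members nor for the shares of all windows. Some windows, such as that of KLK11, belong to alternative starts inside a gene.

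Named sites were the 12 of best joint rank, the 10 of best joint rank within 1 kb of a gene end, up to 8 lost and 8 gained, up to 4 for each list, the 3 weakest, the 3 excluded with the weakest FOS overlap and the 3 strongest with FOS in 1 list. An item that this rule selects is not reported here. Promoters were named for their motif. The members and lists were chosen with earlier results of these data known. The planned motif test around summits was not run because no genome was used here. The alternatives changed the FOS and H3K27ac rules, the overlap, the windows, the strata and the q threshold (−log10 q of at least 10), or left out each replicate. Python 3.11.15, numpy 2.4.6, pandas 2.3.3, scipy 1.17.1, statsmodels 0.14.6 and matplotlib 3.10.9 were used. The overlap code and tests were checked on simulated data and against bedtools 2.31.1.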

Additional observations from a re-analysis of the deposited data

How the results depend on the processing

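The number of sites ranged from 227 to 450 over 15 alternatives, and the higher share at gene ends kept its direction and passed the test in all 16 (10.6 to 26.8 percentage points). Differences below are in percentage points, members minus shared sites with FOS, with adjusted p from Fisher's exact test. Loss of acetylation, 1.87 in the main comparison, no longer passed with summits within 200 bp (1.19, p = 0.141), with no peak of either FOS list (1.44, p = 0.0923), without either FOS replicate (1.51 and 1.56) and over 5 strata of H3K27ac strength (0.675, p = 0.280 by an exact conditional test). The cause was not tested. It passed in the other 12 alternatives (1.72 to 5.62). Gain passed in the direction of fewer members at an overlap of 50% of the shorter interval (-1.95, Fisher's exact p = 0.0287), stood at 0 with a −log10 q of at least 10, and turned to 0.196 and 0.0794 without replicate 1 of CFPAC1 or of HPAF2 MYRF. Gain has no value where a peak in both control lists was required. Position inside a gene passed without FOS replicate 2 (8.24) and without HPAF2 MYRF replicate 2 (7.57), and the cause was not tested. Limiting it to sites farther than 1 kb from a gene end, an alternative chosen after seeing the data, did not make it pass (7.89, Fisher's exact p = 0.0606 adjusted over 3 results).

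Leaving out each replicate gave 247 to 367 sites, losses of 1.51 to 5.62, gains of -0.857 to 0.196, gene ends of 21.4 to 25.6 and positions inside genes of 5.25 to 8.24. Of the 44 named members, 31 to 44 remained, and 27 remained with a −log10 q of at least 10 and 29 with no peak of either FOS list, since stricter lists hold fewer peaks and the latter rule drops every site with a FOS peak. The coverage difference, -159 bp, stayed negative in 18 alternatives (-316 to -81.9, where windows of 2500 and 500 bp set the scale, and -174 to -145 leaving out each replicate), and the coverage ratio to sites with FOS also stayed lower (-0.0870 to -0.0488 leaving out each replicate). With the replicate block the coverage difference was -159 bp and the exact sign-flip p was 0.5, the smallest that 2 pairs allow. The numbers are shared by label only. The motif alternatives were not run, as no genome was used here. Depth is unknown, so an absent peak cannot be told from a peak under the threshold.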

Other observations

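The values below were chosen after seeing the data and carry no test. Counting gene ends within 50 kb, members came in pairs at 9 genes, C1orf159, FAM83A, FRMD8, KCTD3, PLXNB2, RGS3, SEMA4B, TERF2 and ZMYND8, and no gene had more than 2. TERF2 encodes a telomere-binding protein and PLXNB2 a semaphorin receptor, for which SEMA4B is of the ligand family. Chromosomes 1 and 2 held 33 and 28 members, and chromosomes 13 and 18 held 1 each.

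The percentile gap between lines was widest toward HPAF2 at RPGRIP1, MRPS23 and SEMA4A. RPGRIP1 had MYRF folds of 3.89 and 4.52 in CFPAC1, with 13.98 and 18.4 in HPAF2, and MRPS23, a mitochondrial ribosomal protein gene, 3.51 and 3.74 with 6.01 and 6.46. The RPGRIP1 percentiles were 16.1 and 28.5 in CFPAC1 and, in HPAF2, 92.8 and 95.6. Toward CFPAC1 it was widest at TAGAP, SLCO4A1 and BABAM2. SLCO4A1, an organic anion transporter, had 9.84 and 9.06 in CFPAC1, with 4.06 and 3.74 in HPAF2, at the percentiles 88.5, 85.0, 18.6 and 10.3.

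The site at the TMEM42 start overlapped the hairpin of MIR564, whose centre lay 88 bp from the MYRF summit. Inside AEN, where HPAF2 MYRF was among the strongest of the members, CFPAC1 H3K27ac had a peak in control list 2 alone. The KLK11 site likewise had an H3K27ac peak in control list 2 alone. No HPAF2 H3K27ac list was analysed here. At DUSP7, which encodes a phosphatase of ERK kinases, MYRF folds were 10.4 and 12.1 in CFPAC1, with 48.2 and 52.0 in HPAF2 (percentiles 89.5, 91.3, 99.7 and 99.7), with H3K27ac peaks in all 4 CFPAC1 lists.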
